A study of Mus musculus with 319 samples.

Results

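The genes described here are 8 genes of fatty acid synthesis and fat storage, Acly, Fasn, Scd1, Agpat2, Dgat2, Pck1, Plin1 and Pparg, chosen by name out of 10755 genes with a usable measurement. Each was measured by 1 probe, and all 8 probes had a value on all 319 arrays, so every member passed the filter on missing values. The arrays carried total RNA of muscle from F2 mice of both sexes, bred from C57BL/6J and C3H/HeJ. All animals shared the ApoE null background, which removes a protein that clears blood lipoproteins, and all ate a high fat Western diet between 8 and 24 weeks of age. The animals formed 1 group, with each animal as a replicate, because no genotype, treatment, litter or batch is given for them. RNA of each animal in Cy3 was hybridised against a common pool of all samples in Cy5. The number of mice is stated as 319 in one place and 330 in another.

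Fat is made and stored in steps that these genes span. ATP citrate lyase (Acly) supplies acetyl-CoA in the cytosol, fatty acid synthase (Fasn) builds palmitate from it, and stearoyl-CoA desaturase (Scd1) adds a double bond, so these 3 enzymes were treated as the synthesis group. The storage group held the other 5. Agpat2 makes phosphatidic acid, Dgat2 adds the last acyl chain of triglyceride, Pck1 supplies the glycerol backbone in fat cells by glyceroneogenesis, Plin1 (perilipin) coats the lipid droplet of fat cells and gates its breakdown, and Pparg is the nuclear receptor that drives fat cell formation. In muscle samples, fat cells between the fibres are a known source of Plin1 and Pparg RNA.

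Values are log2 ratios of the animal over the pool, so 0 is the level of the pool and 1 is a doubling. A ratio holds no absolute level, so the labelled tissue could not be checked from the level of muscle genes, and the members' levels could not be set against each other. The direction of the ratio is not in the labels. It was read from Y-linked Eif2s3y, which split the arrays into 155 with a median of 1.08 and 164 with a median of -5.62; a gene absent from females can be far below the pool only if the animal is the numerator. Over 20457 rows with no blank, pairs of arrays correlated at a median r of 0.34, with a range of -0.64 to 0.89 and 5078 of 50721 pairs below -0.3. The dye orientation was the same on every array and animals may differ from a pool in opposite ways, so the direction was kept. Correlations within the set do not depend on it. The rule for this gene set also names a limit on the row of the B cell gene Cd79b, a log10 ratio of -0.151, which left 56 arrays above and 263 at or below it. The nearest arrays lay at -0.15 above and -0.85 below on the log2 scale. The arrays were divided by a measured value, so the 2 sides are not groups of the study, and differences in level between them are described without a test.

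Sequence upstream of the members is shown for 4 genes whose values carry the results below: Acly and Fasn for synthesis, Agpat2 and Plin1 for storage. The table of RefSeq promoters on GRCm38.p6 held 6 of the 8 genes, without Scd1 and Dgat2. Each line gives the 250 bases before the annotated start, 5′ to 3′ on the strand of the gene, with capitals marking matches on either strand to the GC box (GGGCGG) or the CCAAT box (CCAAT). The windows are chr11:100528001-100528250 on the minus strand for Acly, chr11:120824548-120824797 on the minus strand for Fasn, chr2:26604418-26604667 on the minus strand for Agpat2, and chr7:79732777-79733026 on the minus strand for Plin1.
Acly: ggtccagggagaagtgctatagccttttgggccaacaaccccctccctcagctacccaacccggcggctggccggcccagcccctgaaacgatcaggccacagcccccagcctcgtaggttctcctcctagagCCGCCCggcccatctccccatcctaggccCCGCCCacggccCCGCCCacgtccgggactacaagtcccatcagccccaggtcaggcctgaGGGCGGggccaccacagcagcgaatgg
Fasn: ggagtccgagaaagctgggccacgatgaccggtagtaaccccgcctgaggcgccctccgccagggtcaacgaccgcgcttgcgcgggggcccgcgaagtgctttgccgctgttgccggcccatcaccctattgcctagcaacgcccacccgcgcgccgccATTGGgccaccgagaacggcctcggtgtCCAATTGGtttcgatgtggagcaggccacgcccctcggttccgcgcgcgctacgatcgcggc
Agpat2: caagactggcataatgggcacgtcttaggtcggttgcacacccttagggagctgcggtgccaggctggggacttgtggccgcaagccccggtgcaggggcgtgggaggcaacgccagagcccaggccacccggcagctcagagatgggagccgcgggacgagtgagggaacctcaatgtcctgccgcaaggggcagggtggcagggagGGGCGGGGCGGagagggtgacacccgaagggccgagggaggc
Plin1: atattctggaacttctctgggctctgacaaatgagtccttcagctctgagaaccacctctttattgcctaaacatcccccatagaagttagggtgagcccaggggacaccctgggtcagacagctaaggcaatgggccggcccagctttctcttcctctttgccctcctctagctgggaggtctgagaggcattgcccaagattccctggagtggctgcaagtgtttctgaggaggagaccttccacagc
The Acly window held 4 matches to the GC box and none to the CCAAT box, and the Fasn window held 3 to the CCAAT box, of which 2 overlap, and none to the GC box. Agpat2 had 2 GC box matches that share a base, and Plin1 had no match to any motif searched. Among the 6 genes, 4 had a GC box and 2 a CCAAT box, counting any of the 3 windows of Pparg, against 32.7% and 33.8% of all 32851 windows. The E box (CACGTG, in 6.02% of all windows), the sterol element (TCACNCCAC, in 1.05%) and the repeat of AGGTCA with 1 base between its copies (in 0.0335%) matched in none of the members' windows. These are matches of letters in short windows and are no measure of binding.

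Most of the 8 genes varied widely between animals, Pparg least, and every one had a median below the pool. The pool of the same animals sets the centre of each ratio, so the side of the median is described without a test. Among the synthesis enzymes, Fasn ran from -2.44 through a median of -0.63 to 1.75, a range of 18.3-fold. Scd1 was close to it, at -2.70, -0.61 and 1.50 for the lowest, median and highest array. Acly varied less, at -1.09, -0.34 and 1.97, with an SD of 0.44 against 0.84 for Fasn and 0.81 for Scd1. The highest Acly value stood alone, with the 95th percentile at 0.58.

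Among the storage genes, Pck1 had the widest spread of the set, from -2.61 through -0.67 to 1.80 with an SD of 0.89, which was larger than that of 97.2% of all rows. Plin1 ran from -2.47 through -0.61 to 1.33 (SD 0.75) and Agpat2 from -1.81 through -0.53 to 2.07 (SD 0.73). Dgat2 had an SD of 0.57, with values of -1.54, -0.44 and 1.28. The regulator Pparg stayed nearest to the pool, at -0.71, -0.16 and 0.77, and its SD of 0.28 exceeded that of 63.7% of rows. Between 78 arrays (Agpat2 and Dgat2) and 93 arrays (Pparg) of 319 lay above the pool. In bulk tissue, fewer cells of a type and less RNA per cell cannot be told apart, and this touches every value here.

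The arrays above the Cd79b limit had the higher median for each of the 8 genes, with wide overlap. The 8 genes move together, so these are not 8 separate results, and the share of all rows with a higher median there is not given. The median of Plin1 was 0.38 above the limit and -0.75 at or below it, and that of Pck1 was 0.44 above and -0.81 at or below. Fasn had medians of 0.21 above and -0.77 at or below, and Acly of 0.34 and -0.43. The lowest Plin1 value of all, -2.47, came from an array above the limit, animal 112.

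**Figure D1:**
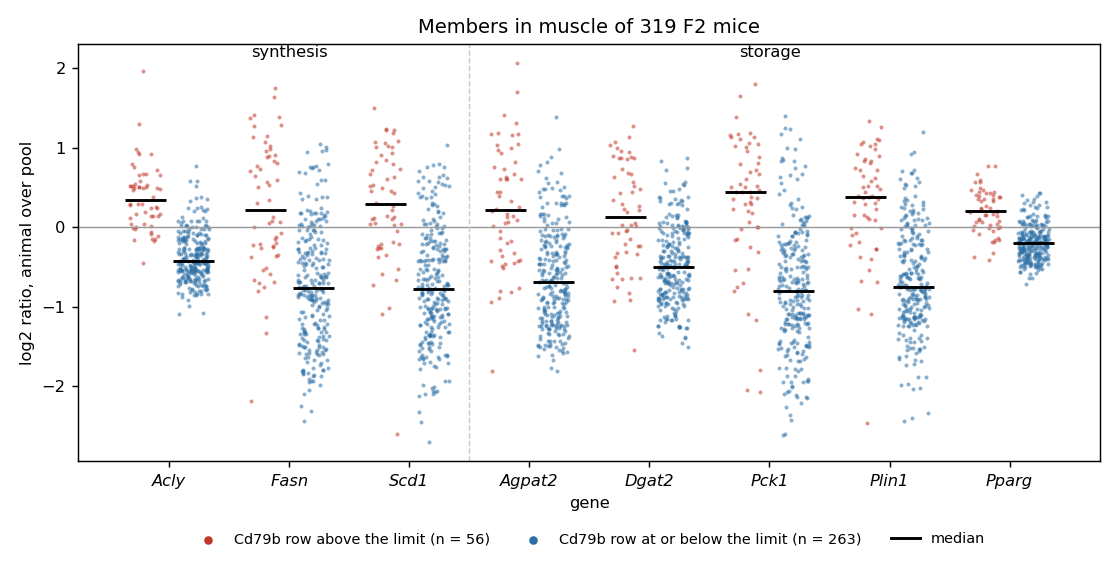
Log2 ratio of each of the 8 genes over the pool (vertical axis) on every array, with arrays above the Cd79b limit (n = 56, red) left of those at or below it (n = 263, blue) and black lines at the medians. The medians of Plin1 are 0.38 above and -0.75 at or below the limit, and the 2 clouds overlap for every gene.

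Levels also moved with the number of the animal, the only order in the labels. In a limma fit of every row on animal number over all arrays, all 8 genes fell with rising number, with adjusted p from 3.39e-06 for Plin1 to 0.0167 for Pck1. Of all rows tested, 11.8% were lower and 18.9% higher with rising number. The median of Plin1 was -0.21 on the 106 arrays of animals 1 to 124, -0.76 on the 106 arrays of animals 125 to 247 and -0.78 on the 107 arrays of animals 248 to 359. Arrays above the Cd79b limit were more frequent at low numbers, at 31, 13 and 12 in the 3 ranges. On the arrays at or below the limit alone, Plin1 (-0.14 per SD of number, adjusted p = 0.00991), Dgat2 (-0.095) and Scd1 (-0.13) passed. The largest of the other adjusted p was 0.49, for Acly. The share of all rows that passed in this fit is not given here, so these calls have no background to be read against. Marker rows of other cells moved with the number too. Lower were 6 of 8 B cell rows (a list that holds Cd79b), 9 of 12 slow fibre rows, 3 of 4 red cell rows and 5 of 19 macrophage rows. None of these lists had a higher row, but others did. Higher were 3 of 62 muscle glycolysis rows (1 lower), 3 of 11 fatty acid oxidation rows (0 lower) and 2 of 9 brown fat rows (4 lower). Of 11 rows of other fat cell genes 4 were lower and 0 higher, and of 15 fatty acid synthesis rows 7 were lower and 1 higher. The part of these lists in the result was not tested. What the number stands for is not in the labels. The sides of the Eif2s3y row, which stand in for sex here, were spread evenly, with 53, 49 and 53 arrays on the upper side in the 3 ranges, and all 8 genes still fell with number when that side was in the fit (adjusted p of 0.0135 or less). For that fit too the share of all rows is not given. The 8 genes move together, so in none of these fits are they 8 separate results.

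The levels of the 8 genes moved together from animal to animal. Their 28 pairs had a mean Pearson r of 0.79 over all arrays, 0.67 on the arrays above the limit and 0.75 on those at or below it, and no pair was negative on either side. These are descriptions with no p, because the genes were brought together with their correlation in view. For scale, the mean over all pairs of 9726 genes on the lower arrays was 0.0042, and 3.19% of pairs exceeded 0.5. Spearman's rho averaged 0.79 over all arrays and 0.73 on the lower ones. Within the 3 ranges of animal number the mean r was 0.81, 0.76 and 0.77, and within the upper and lower side of the Eif2s3y row it was 0.84 and 0.78. All points share the pool in the denominator and the array's own scaling.

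The closest pair joined the groups. Scd1 and the droplet protein Plin1 had r = 0.92 on the lower arrays (rho 0.91, and 0.91 without the 2 arrays farthest from the Scd1 median), against 0.90 on the arrays above the limit. Fasn and Scd1 followed at 0.90, as did the triglyceride enzymes Agpat2 and Dgat2 at 0.90, and Acly with Fasn at 0.87. The 4 weakest pairs all held Pck1, with Acly (0.51), Agpat2 (0.53), Dgat2 (0.53) and Fasn (0.62), and its closest was Plin1 at 0.75. When genes were joined stepwise by mean r, Scd1 went with Plin1 first, Agpat2 with Dgat2 next and Acly with Fasn after them. Pparg joined at 0.75 and Pck1 last at 0.62, so the labels of synthesis and storage did not describe the order of joining.

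**Figure D2:**
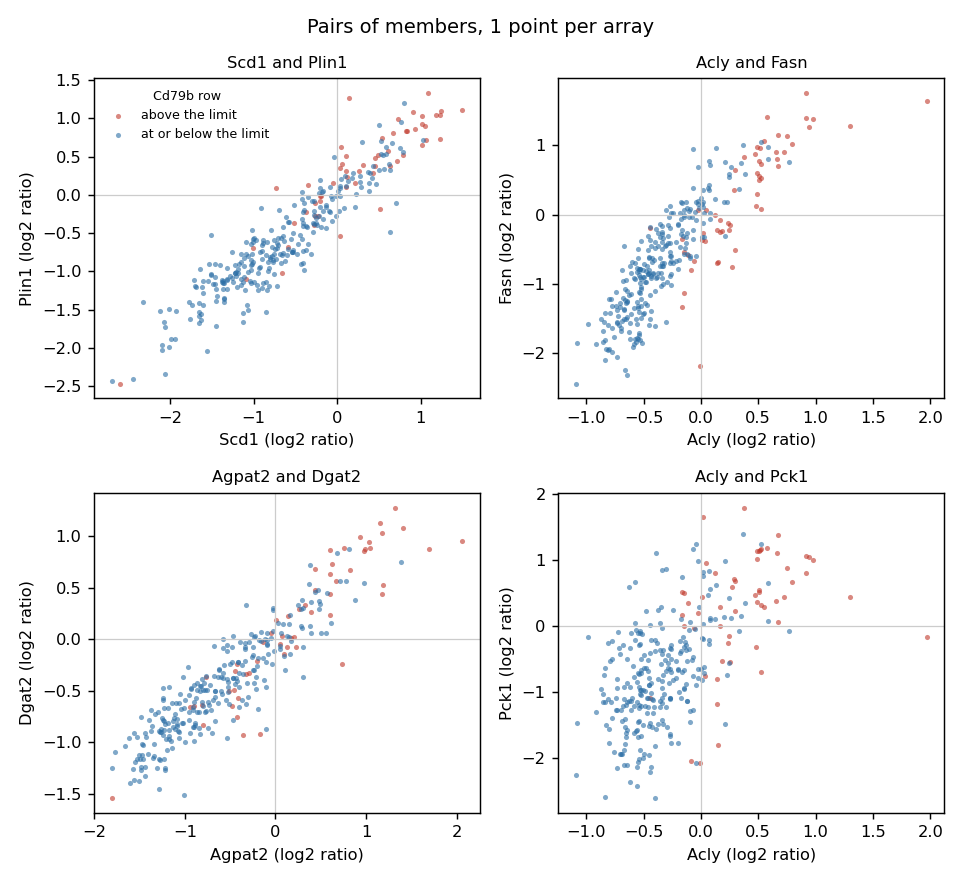
Log2 ratios of 4 pairs of genes, 1 point per array, with arrays above the Cd79b limit in red and those at or below it in blue. Scd1 with Plin1, Acly with Fasn and Agpat2 with Dgat2 form narrow bands, while Acly with Pck1 (r = 0.51 on the lower arrays) is diffuse.

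Averages by group on the lower arrays were 0.86 within synthesis (3 pairs), 0.73 within storage (10 pairs) and 0.74 between the groups (15 pairs). The order of the last 2 means was not stable. Storage pairs averaged 0.69 and pairs between the groups 0.64 on the arrays above the limit, and over all arrays the values were 0.79 and 0.81, 0.77 and 0.74, and 0.74 and 0.77 in the 3 ranges of animal number. The mean within storage was lowered by Pck1, whose r was 0.53 with Agpat2 and 0.53 with Dgat2. Among all tested rows ordered by r with a member, the other members held a mean place of 72, and 43 of the 56 places were within the first 100. Fasn was the nearest row to Acly, Scd1 to Fasn, Plin1 to Scd1 and Agpat2 to Dgat2. The farthest was Pck1 for Acly, at place 468.

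Plin1 is best known as a gene of fat cells, and the other 7 genes were compared again at a fixed Plin1, by partial correlation on the lower arrays. The 3 synthesis enzymes still moved together, at partial r of 0.72 for Acly with Fasn, 0.66 for Fasn with Scd1 and 0.61 for Acly with Scd1. Agpat2 and Dgat2 kept 0.68. Pck1 turned against them, at -0.33 with Agpat2 and -0.19 with Dgat2, and was near 0 with Fasn (0.0098) and Acly (-0.043). The means were 0.66 within synthesis, 0.078 within storage and 0.21 between. Pparg had 0.32 with Acly and 0.055 to 0.16 with the other 5. Pairs across the groups reached 0.41, for Fasn with Agpat2.

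**Figure D3:**
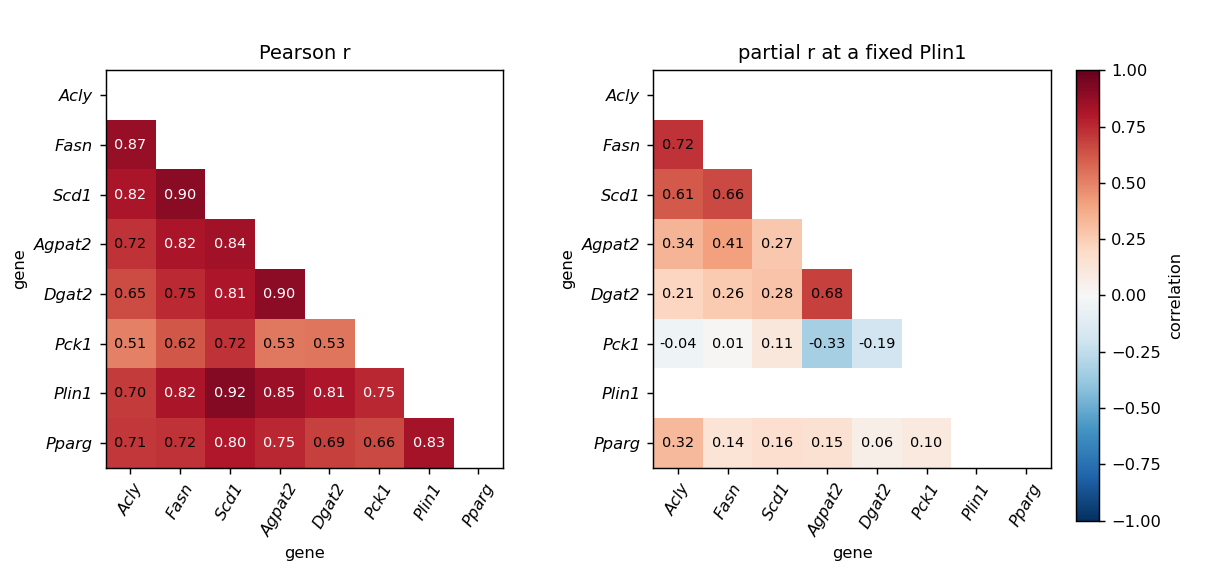
Correlation of each pair of the 8 genes on the 263 arrays at or below the Cd79b limit, as Pearson r (left) and as partial r at a fixed Plin1 (right), with red positive and blue negative. All 28 values on the left are positive, while on the right the 3 synthesis enzymes keep 0.61 to 0.72 and Pck1 with Agpat2 is at -0.33.

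The arrays at the ends of the Plin1 range show which members parted from it, and were singled out by their values. Animal 112 had the lowest Plin1, at -2.47, with Fasn at -2.19 and Scd1 at -2.60, but its Acly was -0.010 and its Pparg -0.18. Animal 75 had the second highest Plin1, 1.27, and the highest Agpat2, 2.07, while its Fasn was -0.23 and its Pck1 -1.17. Animal 26, with the highest Plin1 of 1.33, had all 8 genes above the pool, and its lowest member was Acly at 0.51.

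The genes outside the set that followed it most closely on the lower arrays were led by Cd1d1, a lipid antigen presenting molecule, with a mean r of 0.80. Nnmt (nicotinamide N-methyltransferase) had 0.80, the glutamine carrier Slc1a5 0.79, the mitochondrial carbonic anhydrase Car5b 0.79, Fads3 0.79 and Klb (β-Klotho, a coreceptor of FGF21) 0.78. They were followed by Aoc3, an amine oxidase of fat cells, at 0.78, and by the aldehyde dehydrogenase Aldh1a7, γ-synuclein (Sncg) and the ferroxidase hephaestin (Heph) at 0.77. In all, 224 of 10747 genes (2.08%) had a mean r above 0.5. Opposed genes were weaker, led by Kif21b at -0.42, BC005624 at -0.41 and Foxq1 at -0.40, and 0 genes lay under -0.5. The other genes of the lowest 10, from Hnrnpdl to Prkcq, were at -0.39.

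Each member also had its own nearest partners among genes outside the set. Acly was nearest to Pygl, the liver form of glycogen phosphorylase (0.80), and Fasn to Gys2, the liver form of glycogen synthase (0.84). Agpat2 and Dgat2 were nearest to the droplet protein Plin2 (0.90 and 0.85). Plin1 was nearest to Cd1d1 (0.93) and Scd1 likewise (0.90), Pparg to Aoc3 (0.86) and Pck1 to Lgals12, a galectin of fat cells (0.80). The mitochondrial dicarboxylate carrier Slc25a10 stood among the first 3 for Fasn (0.80) and Agpat2 (0.87).

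Lists of other cell types and pathways were scored on the lower arrays as the mean of their z-scored genes. The list of other fat cell genes, with 11 of its 20 genes measured, had r from 0.61 (Pck1) to 0.77 (Plin1). Adipoq and Fabp4 were not among the 11. Within that list Aoc3, the glycerol channel Aqp7 (0.62) and Angptl4 (0.62) followed the members, whereas the hormones Retn (0.12) and Lep (0.038) hardly did. Retn and Lep also varied little over all arrays (SD 0.17 and 0.16, against 0.78 for Aoc3). The median mean r of the 11 genes was 0.19, 5 were above 0.3 and Gpd1 was last at -0.079, so the score is of mixed genes. Cebpa, which acts beside Pparg in fat cells, was at 0.10. Liver genes stayed within -0.045 and 0.045 of 0 for all members, keratinocyte and sebaceous genes between -0.083 and 0.034, and slow fibre genes between -0.049 and 0.11. Brown fat genes reached 0.18 to 0.35, fibroblast and matrix genes 0.27 to 0.59, and fatty acid oxidation genes, which muscle fibres use, -0.19 to 0.22. The brown fat score is of mixed genes too. In it Otop1 had a mean r of 0.58, Cidea of 0.41 and Ucp1 of 0.31, while 3 of 8 genes were negative, Ppargc1a lowest at -0.17. Mammary epithelium genes had -0.048 to 0.22 and red cell genes 0.027 to 0.11. The part of fat cell content in the shared movement was not tested.

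Within the pathways, single genes followed the members and others did not. In fatty acid synthesis the citrate carrier Slc25a1 led with a mean r of 0.73, ahead of Pnpla3 (0.44) and the desaturase Fads1 (0.42), while Acacb (-0.079) and Scd3 (-0.12) were last of 13. In triglyceride assembly Dgat1 (0.67) and Gpat4 (0.35) stood above Lpin2 (0.016), with Gpd1 (-0.079) and Agpat1 (-0.091) last of 7. Droplet genes were led by Plin2 (0.76), the monoglyceride lipase Mgll (0.67) and Bscl2, the seipin gene (0.60), and Cavin1 (-0.12) and Fitm1 (-0.18) were last of 10. Among fatty acid uptake genes Fabp5 had 0.70 and the transporter Slc27a1 -0.26. Regulators ran from Insig1 (0.56), Ebf1 (0.45) and Scap (0.23) to Klf15 (-0.25) and Rxra (-0.26). Klf15 and Rxra varied little over all arrays (SD 0.15 and 0.10), as did Slc27a1 (0.14) and Cavin1 (0.13), so their r is hard to read. Slc25a10 (0.77) was alone among genes of gluconeogenesis and glyceroneogenesis, where G6pc had 0.064 and Fbp2 -0.22. In cholesterol synthesis Sqle had 0.66, Cyp51 0.25 and Fdft1 -0.17, and in fatty acid oxidation the range was -0.13 (Ucp3) to 0.096 (Cpt2). The median over all 10747 genes was -0.051.

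The rule asks for the relation to macrophage genes on the arrays at or below the limit. Of 20 macrophage markers 19 were measured, and their score was used in a limma fit of every row. All 8 members were higher with a higher score, at adjusted p from 8.87e-24 for Acly to 5.83e-06 for Pck1, where 13.5% of all rows were higher and 31.5% lower. Because the members move together, this is not a count of 8 separate results. Both members and lists were chosen with earlier results of these data known. Per SD of the score, Scd1 was higher by 0.40 ± 0.037 (SE, n = 263), Plin1 by 0.36 ± 0.033, Fasn by 0.35 ± 0.040, Agpat2 by 0.35 ± 0.032 and Dgat2 by 0.24 ± 0.026. Pck1 had a slope of 0.23 ± 0.046, Acly of 0.18 ± 0.016 and Pparg of 0.12 ± 0.011. The median slope of the 8 was 0.30, and that of all rows was -0.015. Acly had the highest Pearson r with the score, 0.58 (rho 0.61), and Pck1 the lowest, 0.30 (rho 0.31). Without the 2 arrays farthest from the median score these became 0.59 and 0.34. Within the 3 ranges of animal number, r was 0.67, 0.55 and 0.52 for Acly and 0.32, 0.21 and 0.43 for Pck1. Within the upper and lower side of the Eif2s3y row it was 0.69 and 0.50 for Acly and 0.35 and 0.35 for Pck1, and all 8 genes passed with that side in the fit. The share of all rows that passed with that side in the fit is not given here.

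Macrophage markers did not share in this equally. The lysosomal membrane protein Laptm5 had a mean r of 0.53 with the members, Mpeg1 (a pore protein of phagocytes) 0.51 and the Fc receptor Fcgr3 0.50. At the other end were the scavenger receptor Msr1 at 0.12 and Cd68 at 0.058. Cd68 varied little on these arrays (SD 0.14, against 0.54 for Laptm5 and 0.61 for Msr1), so its low r is hard to read. Over the whole list, 15 of 19 were above 0.3 and 0 were negative. Of the fibroblast and matrix list, Sparc (0.61) and Col5a1 (0.54) had a higher mean r with the members than Laptm5, and Dcn (0.11) was last of 9. Of the genes of lipid-laden macrophages, the sterol exporter Abcg1 had 0.56, Itgax 0.51 and the lipid receptor Trem2 0.49, with Abca1 at 0.18. The score also had r = 0.38 with the score of other fat cell genes and 0.70 with that of fibroblast and matrix genes, of which 9 of 10 rows were themselves higher with it. Muscle glycolysis genes went the other way, with 46 of 62 rows (7 genes) lower and 1 higher and a median slope of -0.066. Of the B cell rows 4 of 8 were higher, among them that of Cd79b, which set the limit (0.049 ± 0.021). The part of these lists in the members' slopes was not tested.

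With the score of other fat cell genes in the same fit, 7 of the 8 members were still higher with the macrophage score, at slopes from 0.066 ± 0.0087 (Pparg) to 0.24 ± 0.029 (Scd1), where 12.7% of rows were higher and 26.9% lower. Pck1 did not pass, at 0.063 ± 0.041 and adjusted p = 0.216, but it did with the side of the Eif2s3y row in the fit, at 0.11 ± 0.042 and adjusted p = 0.0334. How much of the slope was left depended on what stood for fat cells. With Plin1 in the fit, Fasn (0.029) and Dgat2 (0.035) did not pass and Pck1 fell by 0.14 per SD. With Aoc3, which followed the members better than the score did, Acly (0.085) and Agpat2 (0.11) were higher, Pck1 fell by 0.18, and the remaining 5 did not pass, Scd1 at 0.059 and Plin1 at 0.016 among them. Aoc3 was chosen for this after the correlations were seen. The shares of 12.7% and 26.9% belong to the fit with the score of other fat cell genes. Counts of all rows called with Aoc3 are given further below, and those with Plin1 are not given.

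**Figure D4:**
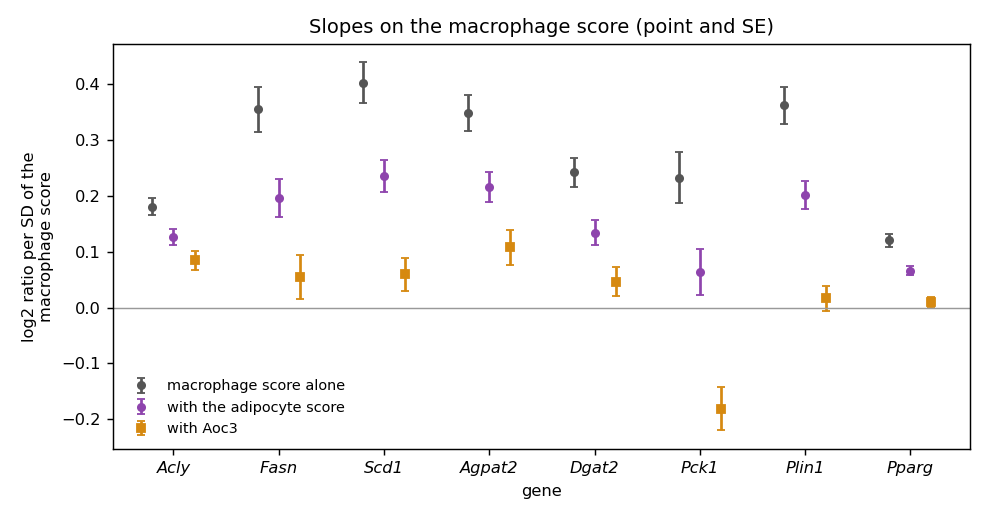
Slope of each gene on the macrophage score (log2 ratio per SD, point and SE, 263 arrays) in 3 fits: the score alone (grey), with the score of other fat cell genes (purple) and with Aoc3 (orange). All slopes shrink from grey to orange, Acly from 0.18 to 0.085, and that of Pck1 ends at -0.18.

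Set against Plin1 directly, on z-scored values, 1 of the 7 other members followed the macrophage score differently. Pck1 was lower than Plin1 by 0.26 ± 0.050 SD per SD of the score (adjusted p = 4.11e-07). The differences of Acly (0.025 ± 0.055), Fasn (-0.076 ± 0.048), Scd1, Agpat2, Dgat2 (-0.058 ± 0.049) and Pparg did not pass. In that fit 0.958% of rows were higher and 95.3% lower, since most rows followed the score less than Plin1 did. Slopes on the arrays above the limit were shallower for all 8, for Scd1 at 0.18 ± 0.12 above and 0.57 ± 0.054 at or below, per SD of the score over all arrays. The difference of slopes passed for 0 of 8 in the limma interaction test, in which 3.34% of rows were higher above the limit and 1.81% lower. At an unadjusted p under 0.05 it was 4 of 8 (Fasn, Scd1, Agpat2 and Plin1), with adjusted p = 0.0574 for Scd1, at a difference of -0.38.

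Other genes of the pathways are given against the share of all rows, 13.5% higher and 31.5% lower with the macrophage score. Of the fatty acid synthesis list, 6 of 15 rows were higher and 2 lower with the macrophage score, among them Scd2, another desaturase, at 0.31 ± 0.040, the citrate carrier Slc25a1 at 0.18 ± 0.016 and the pentose phosphate enzyme Tkt at 0.058 ± 0.015. Of the droplet and lipolysis list, 7 of 10 were higher and 2 lower, with Plin2 at 0.40 ± 0.027, Mgll at 0.17 ± 0.021 and Bscl2 at 0.064 ± 0.0095. Triglyceride assembly had 2 higher and 3 lower of 8 rows, with Dgat1 at 0.064 ± 0.010. The 2 rows of Gpat4 passed in opposite directions, at 0.054 ± 0.016 and -0.042 ± 0.0096. Regulators of lipogenesis had 5 higher and 5 lower of 15, among them Insig1 at 0.24 ± 0.028 and Mlxipl at -0.12 ± 0.016. The share lower in the last 2 lists was near that of all rows. The medians of the 4 lists were 0.036, 0.084, -0.023 and 0.0059, and that of all rows -0.015.

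Synthesis was set against storage in a fit of every row on Fasn and Plin1 together, on the lower arrays, where the 2 genes had r = 0.82. This fit was added after the correlations were seen and restates them, so the members' slopes are a description with no test. At a fixed Plin1, the slopes per SD of Fasn were 0.33 ± 0.023 for Scd1, 0.28 ± 0.016 for Acly, 0.23 ± 0.032 for Agpat2 and 0.13 ± 0.030 for Dgat2 (SE). Those of Pparg (0.029 ± 0.013) and Pck1 (0.0087 ± 0.055) were smaller. At a fixed Fasn, the slopes per SD of Plin1 were 0.58 ± 0.055 for Pck1, 0.39 ± 0.023 for Scd1, 0.34 ± 0.032 for Agpat2, 0.28 ± 0.030 for Dgat2 and 0.16 ± 0.013 for Pparg. Acly stood at -0.0091 ± 0.016.

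The difference of the slopes, Fasn minus Plin1, was 0.29 ± 0.031 for Acly, -0.066 ± 0.044 for Scd1, -0.11 ± 0.060 for Agpat2, -0.15 ± 0.056 for Dgat2, -0.13 ± 0.025 for Pparg and -0.57 ± 0.10 for Pck1. Acly thus lay on the side of Fasn, Pck1 and Pparg on that of Plin1, while the desaturase Scd1 followed both. These slopes are in log2 units, so their size also depends on the spread of each gene. On the lower arrays the SD was 0.78 for Pck1 and 0.22 for Pparg.

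Most rows of the pathway lists outside the set passed no test of the difference. Over all rows it passed towards Fasn for 4.02% and towards Plin1 for 4.45%. Of the fatty acid synthesis list, 6 of 15 rows were higher with Fasn at a fixed Plin1, where 3.88% of all rows were higher and 7.91% lower. The difference passed for 4 of the 15, all towards Fasn: Scd2 (0.52), the elongase Elovl6 (0.47), Acss2, which makes acetyl-CoA from acetate (0.30), and 1 of the 3 rows of acetyl-CoA carboxylase Acaca (0.18). The other Acaca rows did not pass, nor did Slc25a1 (-0.025) and Fads1 (-0.11). Towards Plin1 the difference passed for 4 of 10 rows of the droplet and lipolysis list, G0s2 (-0.20), Mgll (-0.19), Plin4 (-0.19) and Bscl2 (-0.11), and for 1 of 8 rows of triglyceride assembly, Dgat1 (-0.12). Over the synthesis and droplet lists the median differences were 0.023 and -0.13, and over all rows -9.48e-05. The genes singled out here and with the macrophage score beyond the naming rule were chosen after their values were seen.

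Macrophage genes were called with Plin1 and not with Fasn, but the direct test passed for few. This concerns those 2 genes and not synthesis and storage as groups. On the lower arrays the synthesis gene Acly had r = 0.58 with the macrophage score, against 0.56 for Plin1 and 0.48 for Fasn. At a fixed Fasn, 17 of 19 were higher with Plin1, where 7.87% of all rows were higher and 9.16% lower, and at a fixed Plin1, 0 of 19 were higher with Fasn in the limma fit (2 at an unadjusted p under 0.05). The difference itself passed for 1 of 19, Laptm5 (-0.35, adjusted p = 0.00342), and for 11 at an unadjusted p under 0.05, so for 18 genes the slopes are not shown to differ. With Pparg in place of Plin1, 11 of 19 were higher with Fasn, but so were 22.2% of all rows. On the arrays above the limit, 1 of 19 and 3.16% of all rows were higher with Plin1, and with the first principal component removed 7 of 19 and 6.00% of all rows were.

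**Figure D5:**
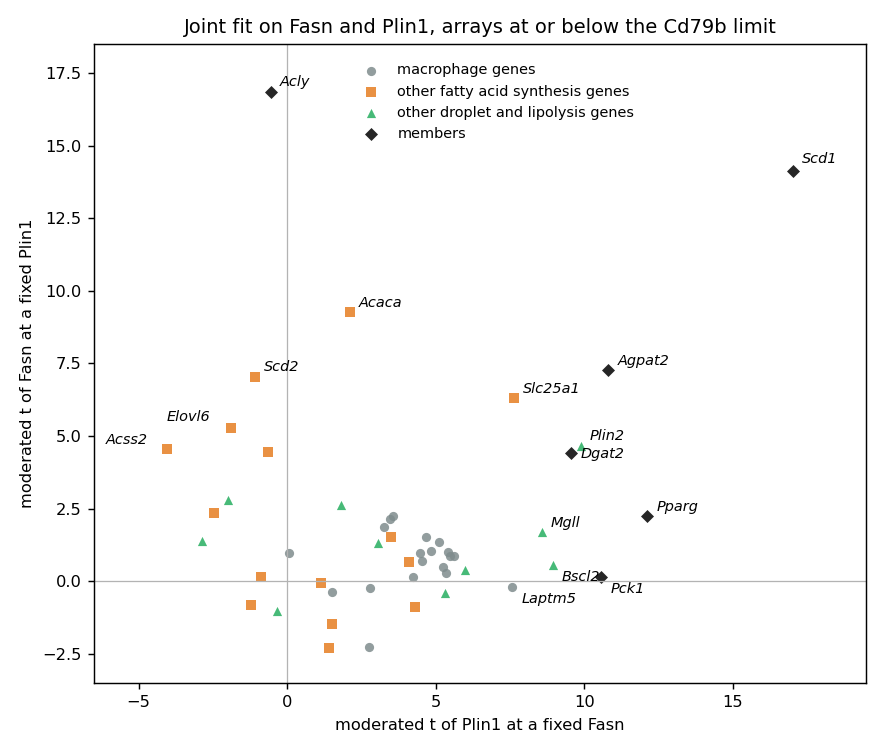
Moderated t of Fasn at a fixed Plin1 (vertical axis) against that of Plin1 at a fixed Fasn (horizontal axis) in the joint limma fit on 263 arrays, with 1 point per row for members, other synthesis genes, droplet genes and macrophage genes. Acly and 1 row of Acaca sit high near the vertical line at 0, Pck1 and Pparg sit low at the right, and Scd1 is high on both axes.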

How the data were processed

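The 319 arrays compared the RNA of F2 muscles with a pool in 2 colours, and the authors deposited 1 log10 ratio per row and array for 23382 rows (the base follows from limits at exactly -2 and 2, a 100-fold ratio). The sources used here do not give the background correction, normalization or limits applied to the images. Values were converted to log2. A row was tested where 80% or more of its arrays held a value, which kept 23190 rows and left out 192. The platform table gave 1 symbol for 13639 rows, several for 48 and none for 9695, and names were updated through the RefSeq table of GRCm38.p6, which left 12647 named rows of 10831 genes. The build behind the probes is not given. Rows of a gene were averaged for correlations and scores and tested singly. Array medians lay between -0.081 and 0.14 (log2). For arrays the number of animals limits the precision.

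Fits used limma 3.58.1 in R 4.3.3 (lmFit and eBayes) with Benjamini-Hochberg adjustment over all rows tested and a threshold of 0.05, and were tested on simulated data. Scores are means of z-scored genes, and slopes are per SD. Genes were named as the 8 members, the 3 nearest of each, and the 10 highest and 10 lowest by mean r with them. The rule also covers the 3 highest and 2 lowest of each list. Not all genes under it are named, and genes named outside it were chosen after their values were seen. Members and lists were chosen with earlier results of these data known, and the fits on animal number, on Fasn with Plin1 and with the side of the Eif2s3y row were added after the data were seen. The labels do not give sex across the animals, so the widest gap in the Eif2s3y row was used as a term or to compute values within a side, never to compare the sides. Of 22 lists with 237 genes, 183 genes had a tested row. For 1 sample the title and the source name give different animal numbers, and 2 arrays carry number 227. Alternatives changed centring, normalization, arrays, scores and covariates.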

Additional observations from a re-analysis of the deposited data

How the results depend on the processing

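Of the values recomputed here, the mean correlations kept their sign under every alternative: array centring, quantile normalization, removal of the first principal component, leaving out 20 arrays of outlying SD or the 2 arrays numbered 227, Spearman's rho, ranges of animal number and sides of the Eif2s3y row. Removal of the first principal component moved the mean r to 0.66 over all arrays and 0.66 on the lower arrays, to 0.81 within synthesis, 0.65 within storage and 0.65 between them; on the lowest range of animal numbers the synthesis mean was 0.89. On the upper side of the Eif2s3y row, an alternative chosen after seeing the data, the means were 0.84 over all arrays and 0.81 on the lower arrays, 0.79 within storage and 0.81 between. All 8 members stayed higher with the macrophage score with animal number or the Eif2s3y side in the fit, with C1q or lipid-laden macrophage genes as the score, and on all arrays; with the first component removed 7 passed and Pck1 turned to -0.016. The share of all rows called is not given for each of these fits. Counts of rows moved more. With array medians subtracted, 3031 rows were lower with the macrophage score, and with the adipocyte score in the fit 5784 were called, 2350 of them lower. With the first component removed 6548 were called, 3951 lower, and on all arrays 17470, of which 4996 were higher and 12474 lower. With Aoc3 for the adipocyte score 5505 were called, 3373 lower, and 3 members passed, with Pck1 at -0.18, and with Plin1 for it Pck1 was at -0.14. In the joint fit, the arrays above the limit gave 18 rows for Fasn, 16 higher and 2 lower, with 2 members (Acly and Scd1), and 1332 rows for Plin1, 733 higher and 599 lower, with 1 macrophage gene. With Pparg for Plin1, 12073 rows followed Fasn, 5141 higher and 6932 lower, with 11 macrophage genes. Centring left 1185 rows lower with Plin1, and removal of the first component 1244, with 7 macrophage genes. The causes were not tested. No paired analysis was possible because all arrays form 1 group. The 56 arrays above the limit give less precision than the 263 below, which limits the count of 0 members in the test between the sides. Ratios to a pool of the same animals show differences between animals only.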

Other observations

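The joint fit on Fasn and Plin1 (lower arrays, limma, adjusted p over all rows) also gave values for other genes of lipid control, named here after their values were seen. At a fixed Plin1, Insig1, which holds the sterol sensor in the membrane, had a slope on Fasn of 0.26 ± 0.041, the transcription factor Srebf1 of 0.17 ± 0.045 and Thrsp, a lipogenic accessory protein of the fatty acid synthesis list, of 0.19 ± 0.041, and all 3 passed; for none of them did the difference from the Plin1 slope pass (adjusted p = 0.134, 0.0815 and 0.0721). Of the cholesterol synthesis list 3 of 11 rows were higher with Fasn, and the difference passed for 2, Cyp51 (0.18) and Dhcr7 (0.16). The nuclear receptor Nr1h3 was on the side of Plin1 (-0.16, adjusted p = 0.00156), as was Ebf1, a factor of fat cell formation (-0.25, adjusted p = 9.84e-07).

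Of the genes tabulated for this fit (list genes and the 8 leading genes of each side), the difference was largest for Nnat (neuronatin), which fell by 0.46 per SD of Fasn at a fixed Plin1 and was higher by 0.87 per SD of Plin1 at a fixed Fasn, a difference of -1.33 (adjusted p = 6.59e-33). Sncg (-0.58), Lgals12 (-0.66) and Cd1d1 (-0.67) were also on the side of Plin1. Both glycogen genes near the members passed on both sides: Gys2 had slopes of 0.41 on Fasn and 0.22 on Plin1, and Pygl of 0.26 and 0.22, and neither difference passed (adjusted p = 0.0779 and 0.786).

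Endothelial genes as a score had r from 0.038 (Pck1) to 0.27 (Acly) with the members on the lower arrays. T cell genes had -0.19 (Dgat2) to 0.058 (Pparg), B cell genes 0.12 to 0.27 and muscle glycolysis genes -0.27 (Pparg) to 0.093 (Pck1). The B cell list holds Cd79b, the row that set the limit.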
